A study of Canis lupus familiaris with 12 samples.

Results

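The effect of Yoda1 on the transcriptome of MDCK cells, an epithelial line established from dog kidney, was examined after 12 h of exposure. Yoda1 is a small molecule agonist of the mechanically gated channel Piezo1. The comparison used 6 of the 12 libraries of the study, chosen by their column names: 3 libraries of cells given 25 µM Yoda1 for 12 h (group T1) and 3 control libraries listed at 12 h (group C1). All 12 libraries came from this 1 cell line, grown in serum-containing medium. No source used here gives what the control cells received, such as a vehicle. Replicates are numbered 1 to 3 within each group and are not stated to be separate cultures. The p-values therefore reflect only how far libraries scatter within their groups, pooled over the 4 groups fitted together, those at 24 h included. That scatter may be technical.

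Piezo1 opens under membrane tension and lets calcium and other cations into the cell. Calcium entry is known to act through calmodulin, the phosphatase calcineurin and protein kinases, which in turn control transcription factors of the NFAT, AP-1, EGR and NR4A families. In epithelia, the channel is known for its part in sensing crowding and stretch, and the membrane genes described here build the junctions, matrix contacts, apical domain and ion transport of such cells. The symbols PIEZO1, PIEZO2, JUN, DUSP1 and HES1 are not paired with any identifier in the files, so no value can be given for them.

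The 6 libraries held 20709218 to 37241313 estimated counts, and every library carried the same lane number in the deposited sample sheet. Levels below are CPM, each gene's count as a share of its library scaled by TMM, differences are log2 values of T1 minus C1 with their standard error (SE), and n = 3 in each group. In a principal component analysis of the 6 libraries, the first component held 34.4% of the variance and separated T1 from C1, and the second held 24.8%. The summed level of 16 kidney epithelial markers was 5137 to 5636 CPM in C1 and 4354 to 4528 CPM in T1. Of these, CDH1, KRT18 and PAX8 were present in every library, UMOD was at 0, and SLC12A1 and AQP3 did not exceed 0.302 CPM. The 11 fibroblast markers summed to 6.83 to 8.69 CPM in C1 and 4.01 to 4.99 CPM in T1, with DCN, LUM, COL3A1 and FAP at 0 in all 6 libraries. The 6 endothelial markers, most of whose sum was KDR, came to 14.6 to 16.8 CPM in C1 and 9.92 to 12.8 CPM in T1. The 10 leukocyte markers came to 970 to 1265 CPM in C1 and 850 to 1085 CPM in T1, nearly all of it from 1 identifier labelled CD79A, while CD3D, TYROBP and AIF1 were at 0.

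With all 12 libraries and TMM scaling, more genes were lower with Yoda1 than higher, and the lowered genes moved further. Among 14169 genes tested by edgeR's quasi-likelihood test, 990 (6.99%) had a Benjamini-Hochberg adjusted p under 0.05 and are called changed here. Of these, 427 (3.01%) rose and 563 (3.97%) fell. The excess of lowered genes turned under other settings, with 2231 higher and 2108 lower with the replicate block, 746 and 509 with scaling by library totals alone, and 690 and 373 on log2(TPM + 1) values. The median change of a called gene was 1.31-fold upward and 1.55-fold downward. At least 2-fold changes were found in 16 genes that rose (0.113% of those tested) and 129 that fell (0.91%), and 30 genes fell by 4-fold or more. The asymmetry was also present above 5 CPM, where 6 genes rose and 51 fell by 2-fold or more. Since whole cultures were sequenced, a lower level in fewer cells and less RNA per cell cannot be told apart.

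**Figure D1:**
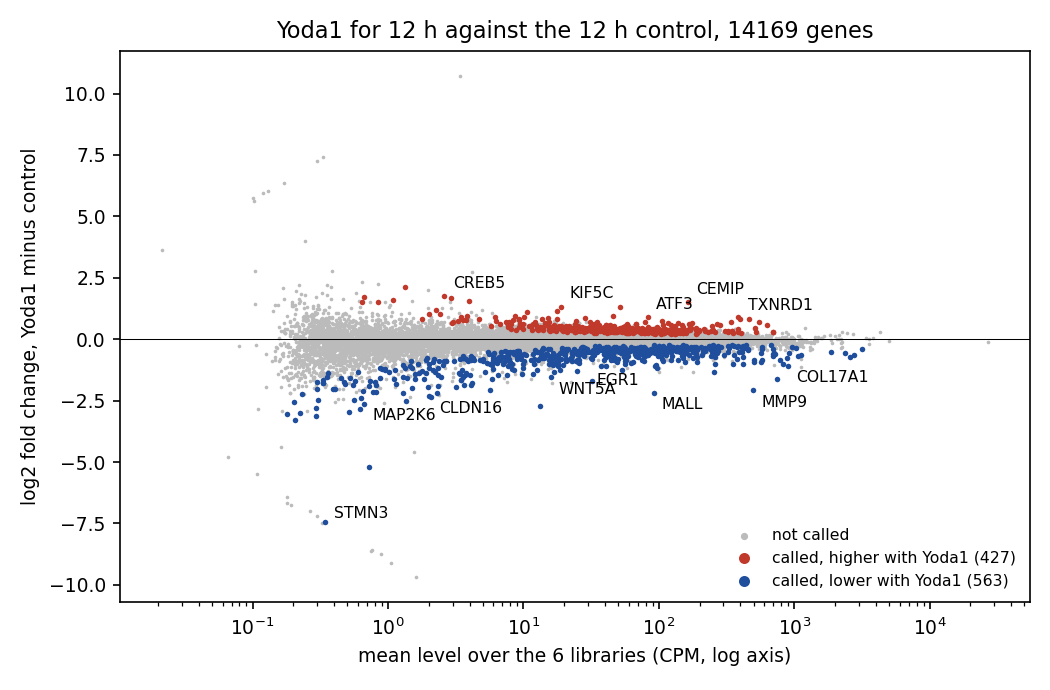
Difference of each tested gene between Yoda1 and control at 12 h (vertical axis, log2 of T1 minus C1) against its mean level (horizontal axis, log scale of CPM), with called genes coloured by direction. The called genes below the zero line reach further from it than those above, with 129 genes at least 2-fold lower and 16 at least 2-fold higher.

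All 990 called genes had 3 T1 libraries that lay outside the range of the 3 C1 libraries. This was also the case for 32.7% of all tested genes, with 16.4% higher and 16.3% lower, so non-overlap alone is common here. Remarks below that the libraries of a called gene stood apart describe its values and add nothing to its call. The number called depended on single libraries. It was 185 without T1 replicate 3, 265 without T1 replicate 1, 358 without C1 replicate 3, 402 without C1 replicate 1 and 467 without C1 replicate 2, and it rose to 1695 and 1693 without the 24 h control replicates 2 and 1. With the replicate number as a block, edgeR called 4339 genes, or 30.6% of those tested, including 983 of the 990. The block pairs T1 and C1 by replicate number, a pairing that the labels do not give. A core of 170 genes was called in all 12 fits that each left out 1 library, and the text below leans on its members. They are named as called in every leave-out fit.

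**Figure D2:**
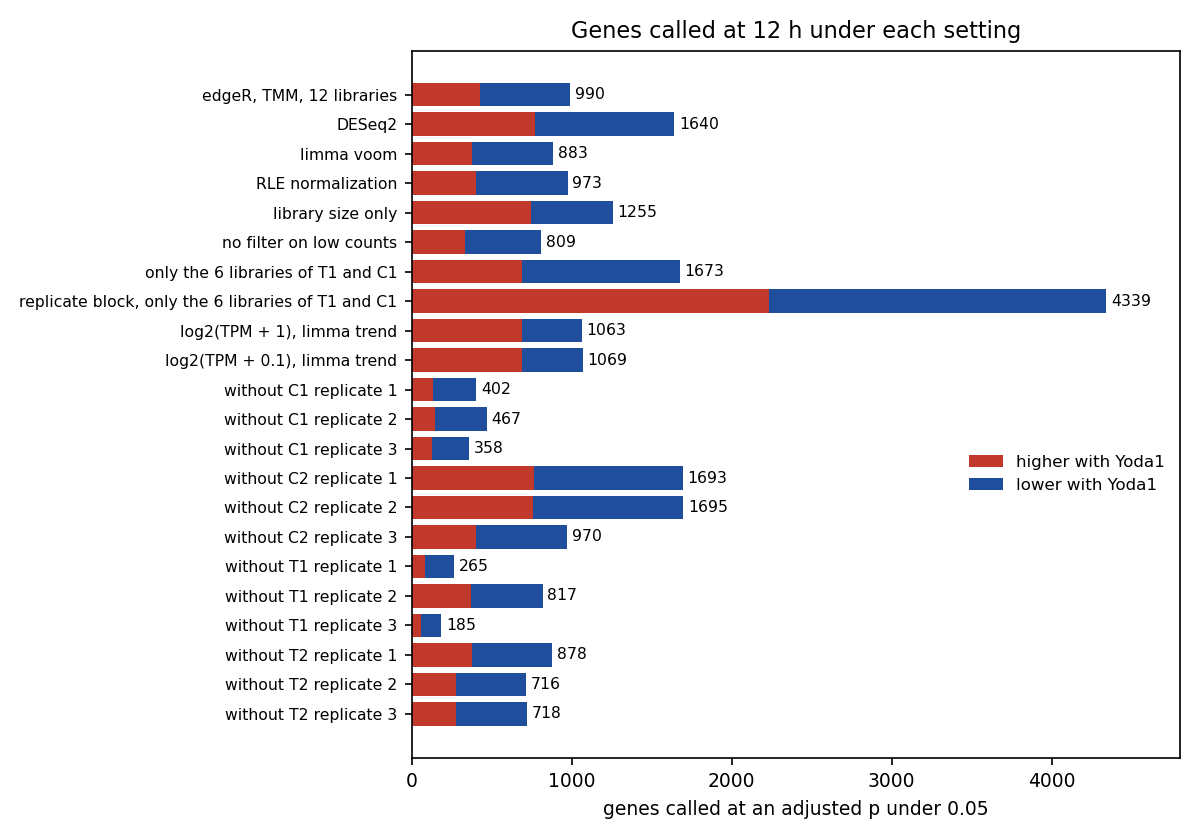
Number of genes called higher and lower in T1 than in C1 (horizontal axis, genes) under each way of fitting the data (vertical axis), where C2 and T2 are the 24 h control and Yoda1 groups that share the fit. The counts run from 185 genes without T1 replicate 3 to 4339 with the replicate block, beside 990 in the fit of all 12 libraries.

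Counts are given for 3 kinds of gene beside the 3.01% of all tested genes that rose and the 3.97% that fell, with no test of a difference between kinds. Counts with the replicate block, here and below, have a much higher background. Of all 14169 tested genes the block called 30.6%, 2231 higher and 2108 lower. The transcription factor lists, which also hold some targets and regulators of factors, had 263 tested genes. Of the 263, 11 (4.18%) rose and 16 (6.08%) fell, with a median log2 difference of 0.04 against 0.01 over all tested genes. Signalling genes numbered 533, of which 11 (2.06%) rose and 39 (7.32%) fell, with a median of -0.03. Without T1 replicate 3, T1 replicate 1, C1 replicate 3, C1 replicate 1 or C1 replicate 2, the lowered signalling genes numbered 12, 16, 16, 22 and 23, and with the replicate block 72 signalling genes rose and 122 fell. The membrane lists held 424 tested genes, among them secreted proteases and inhibitors such as MMP9 and TIMP1. Of the 424, 6 (1.42%) rose and 48 (11.3%) fell, with a median of -0.11. The lowered membrane genes numbered 15 without T1 replicate 3, 21 without T1 replicate 1, 24 without C1 replicate 3 and 27 without C1 replicate 1, and 14 of the 48 were called in every leave-out fit against none of the 6 that rose. With the replicate block, 53 membrane genes rose and 128 fell. In the transcription factor lists, 4 genes rose and 2 fell without T1 replicate 3, and 4 and 6 without T1 replicate 1. The counts were 6 and 7 without C1 replicate 3, 8 and 7 without C1 replicate 1 and 5 and 13 without C1 replicate 2. Their balance of directions turned with the scaling: 19 rose and 15 fell when libraries were scaled by their totals alone, 14 rose and 8 fell on log2(TPM + 1) values, and 52 rose and 40 fell with the replicate block. Among all genes, the share of called genes that rose was 43.1% with TMM scaling, 59.4% with total-count scaling and 64.9% on log2(TPM + 1) values.

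**Figure D3:**
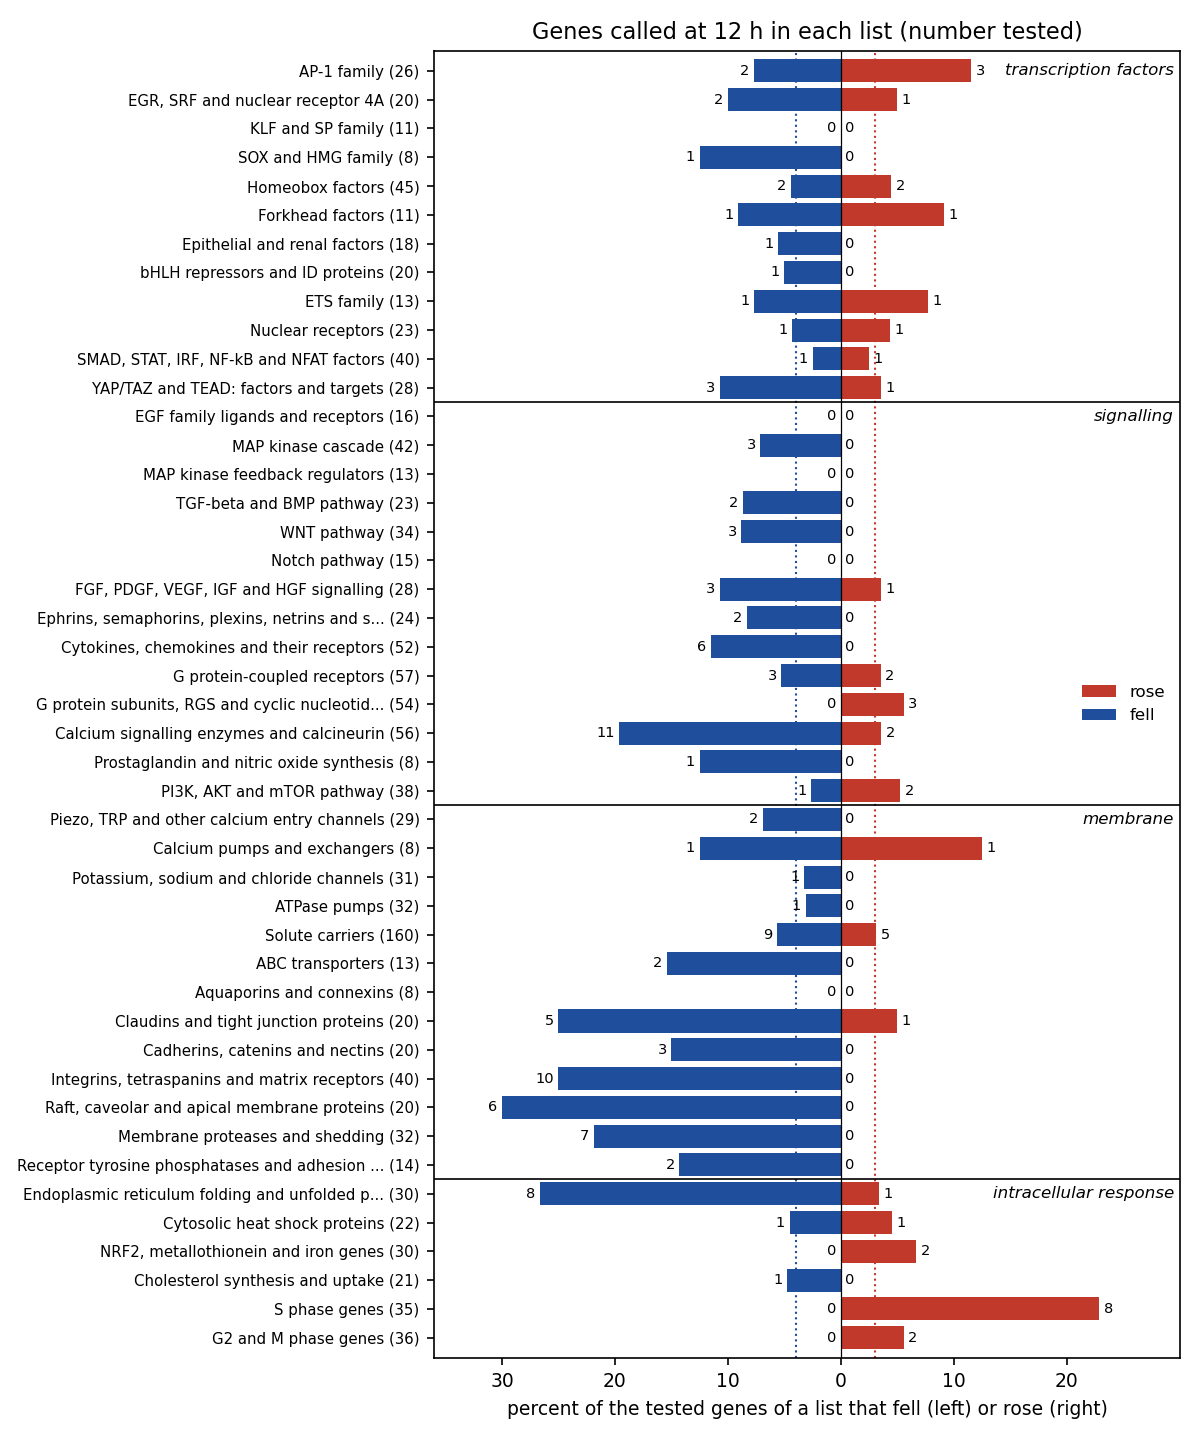
Share of each gene list's tested members that rose or fell (horizontal axis, percent of tested members) for lists of transcription factors, signalling, membrane and intracellular response genes (vertical axis), with dotted lines at the shares of all tested genes. The lists reaching furthest to the lowered side are raft and apical membrane proteins, with 30% of 20 members, and endoplasmic reticulum folding genes, with 26.7% of 30, against 3.97% of all tested genes.

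Among the factors that bind DNA as AP-1 or related leucine zipper dimers, 26 were tested, 3 rose (11.5%) and 2 fell (7.69%). Of all tested genes, 3.01% rose and 3.97% fell. CREB5, which binds cyclic AMP response elements, was measured at 1.39, 0.933 and 1.29 CPM in C1 and at 4.61, 3.75 and 3.68 CPM in T1. It was low in all 3 controls and higher in all 3 treated libraries, a rise of 1.75 ± 0.28 (edgeR adjusted p = 0.0042). ATF3, a factor induced by many kinds of cell stress, stood at 51.1, 60.9 and 61.9 CPM in C1 and at 109, 103 and 111 CPM in T1. The treated libraries lay close together and far above the controls, a rise of 0.89 ± 0.10 (edgeR adjusted p = 0.00083). FOSL2, a Fos family partner of Jun proteins, was at 292, 224 and 271 CPM in C1 and at 446, 387 and 433 CPM in T1, a rise of 0.69 ± 0.13 (edgeR adjusted p = 0.011). The early response members FOS and JUNB went the other way. FOS fell from 64.0, 60.9 and 66.5 CPM to 43.3, 43.7 and 45.5 CPM, a difference of -0.53 ± 0.10 (edgeR adjusted p = 0.012). JUNB fell from 162, 186 and 194 CPM to 114, 140 and 121 CPM, also -0.53, with an SE of 0.11 (edgeR adjusted p = 0.015). CREB5 and ATF3 were called in every leave-out fit. FOSL2, FOS and JUNB lost their calls without T1 replicate 1 (edgeR adjusted p = 0.0515, 0.054 and 0.0729) and without T1 replicate 3 (0.0542, 0.0505 and 0.0761), and JUNB also without C1 replicate 3 (0.062). FOSB (21.3 and 18.3 CPM on average in C1 and T1) and FOSL1 (26.3 and 22.9 CPM) were not called, with edgeR adjusted p = 0.78 and 0.77. Adding the replicate block, 6 members of the group rose and 4 fell.

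Of 20 tested genes of the EGR, SRF and NR4A group, 2 fell and 1 rose (3 and 2 with the replicate block). The share called was 15%, beside 6.99% of all tested genes. EGR1, a zinc finger factor induced within minutes by many stimuli, stood at 71.0, 82.2 and 73.8 CPM in C1 and at 36.8, 33.3 and 41.9 CPM in T1. No treated library reached the lowest control, a fall of 1.02 on the log2 scale with an SE of 0.14 (edgeR adjusted p = 0.0017), and the call held in every leave-out fit. The second lowered gene, ZFP36L1, encodes an RNA-binding protein that promotes mRNA decay, and it fell by 0.45 with an SE of 0.10 (edgeR adjusted p = 0.023), a call lost without any single T1 or C1 library (0.0579 to 0.0963). NR4A2, an orphan nuclear receptor of the early response, rose from 2.58, 2.28 and 2.38 CPM to 4.55, 4.75 and 4.33 CPM, a difference of 0.91 ± 0.19 (edgeR adjusted p = 0.016). Its call was lost without C1 replicate 2, C1 replicate 3, T1 replicate 1 or T1 replicate 3 (edgeR adjusted p = 0.0584, 0.0597, 0.0634 and 0.0578). Its relative NR4A1 averaged 8.53 CPM in C1 and 8.96 CPM in T1 and SRF 33.7 and 33.8 CPM, neither called (edgeR adjusted p = 0.92 and 0.98). By edgeR none of 11 tested KLF and SP factors was called (DESeq2 called 1, and 2 had an unadjusted p under 0.05 by edgeR), and KLF6 averaged 207 CPM in C1 and 223 CPM in T1. Counts at an unadjusted p under 0.05, here and below, stand beside 3322 of all 14169 tested genes by edgeR. MYC was at 298, 282 and 302 CPM in C1 and at 285, 305 and 265 CPM in T1, so its groups overlapped (difference -0.04 ± 0.07, edgeR adjusted p = 0.75) and the sign turned positive on TPM values and without T1 replicate 3. The uncalled genes given by value here and below, apart from MYC, CCN1, CCN2 and ANKRD1, were chosen after their values were seen.

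ETS2, an ETS family factor activated through MAP kinase phosphorylation, gave one of the tightest rises. It was at 51.4, 52.6 and 55.5 CPM in C1 and at 83.4, 80.2 and 82.3 CPM in T1, a rise of 0.62 ± 0.08 (edgeR adjusted p = 0.00097). NR1D2, a repressor of the circadian clock, rose from 18.7, 19.0 and 23.5 CPM to 38.7, 31.6 and 40.5 CPM, a difference of 0.86 ± 0.15 (edgeR adjusted p = 0.0064). Both were called in every leave-out fit. The basic helix-loop-helix factor ASCL2, a Wnt target in intestinal stem cells, was at 2.62, 2.20 and 2.08 CPM in C1 and at 0.768, 1.10 and 0.690 CPM in T1. The highest treated library stayed below the lowest control, a fall of 1.42 with an SE of 0.25 (edgeR adjusted p = 0.0071), called in every leave-out fit. RXRA, the shared partner of many nuclear receptors, fell from 170, 155 and 167 CPM to 126, 123 and 116 CPM (edgeR adjusted p = 0.0067). Its call was lost only without T1 replicate 3 (0.0505).

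Among factors tied to cell identity, 8.89% of homeobox factors and 5.56% of epithelial and renal factors were called, beside 6.99% of all tested genes. Of 45 tested homeobox factors, ZHX2 (0.64 ± 0.13) and DLX1 (0.69 ± 0.17) rose, and HOXB13 (-0.76 ± 0.16) and HOXA10 (-0.32 ± 0.08) fell, with edgeR adjusted p between 0.015 and 0.038. HOXB13 stood at 18.1, 15.8 and 16.1 CPM in C1 and at 10.6, 10.2 and 8.74 CPM in T1, the groups standing well apart. GRHL3, a factor of epithelial barrier formation and the only called member of 18 epithelial and renal factors, fell from 51.0, 46.3 and 52.0 CPM to 39.7, 27.3 and 34.9 CPM (edgeR adjusted p = 0.017). VGLL1, a cofactor of TEAD factors, fell from 6.29, 5.19 and 6.43 CPM to 2.91, 1.84 and 1.73 CPM, a difference of -1.46 ± 0.29 (edgeR adjusted p = 0.013). Each of these calls was lost without T1 replicate 3 (edgeR adjusted p = 0.0505 for ZHX2, 0.0724 for DLX1, 0.0875 for HOXB13, 0.117 for HOXA10, 0.068 for GRHL3 and 0.0712 for VGLL1). ZHX2, HOXB13, DLX1 and HOXA10 were also not called without T1 replicate 1 (0.0721, 0.0521, 0.121 and 0.146). DLX1, HOXA10 and GRHL3 were not called without C1 replicate 3 either (0.0911, 0.113 and 0.0653), nor was ZHX2 (0.0619). HOXB13, DLX1, HOXA10 and GRHL3 also lost their calls without C1 replicate 1 (0.0603, 0.0549, 0.0846 and 0.0583). The same happened to ZHX2, DLX1 and HOXA10 without C1 replicate 2 (0.0537, 0.117 and 0.0952). Over the fits without a T1 or C1 library, the log2 difference ran from 0.605 to 0.788 for DLX1. For HOXA10 it ran from -0.337 to -0.289. DLX1 and HOXA10 were further lost without T1 replicate 2 (0.0643 and 0.0624), and HOXA10 without any single 24 h Yoda1 library (0.051, 0.0593 and 0.0624). Among 18 epithelial and renal factors the replicate block called 7 lower and 1 higher, beside a median of -0.19.

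**Figure D4:**
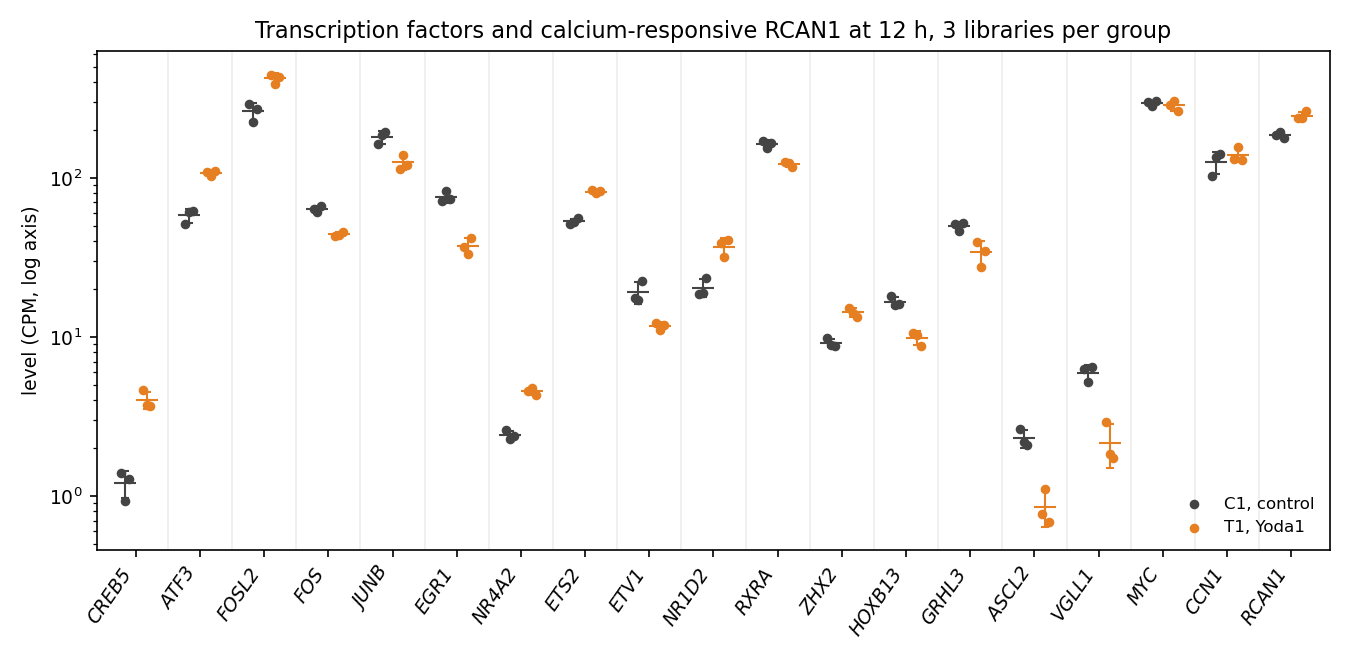
Level of transcription factors and of early response genes in each library (vertical axis, CPM on a log scale) for control and Yoda1 at 12 h, with each point 1 library, the dash the mean and the bar the SD. CREB5, ATF3 and ETS2 stand higher in all 3 Yoda1 libraries, EGR1 and ASCL2 stand lower, and the 2 sets of points of MYC and CCN1 overlap.

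Genes linked to calcineurin and to YAP, a coactivator driven by cell tension, were read next. RCAN1, an inhibitor of calcineurin whose transcription is driven by calcineurin and NFAT, was at 185, 193 and 179 CPM in C1 and at 236, 239 and 263 CPM in T1. The lowest treated library exceeded the highest control, a rise of 0.40 ± 0.07 (edgeR adjusted p = 0.0044) that was called in every leave-out fit. PPP3CC, a catalytic subunit of calcineurin, rose from 6.40, 7.22 and 6.58 CPM to 12.3, 10.3 and 12.8 CPM (0.81 ± 0.17, edgeR adjusted p = 0.018). It was not called without C1 replicate 1, C1 replicate 3, T1 replicate 1 or T1 replicate 3 (edgeR adjusted p = 0.0642, 0.0653, 0.0713 and 0.0849). NFATC1 averaged 13.1 CPM in C1 and 16.3 CPM in T1 (edgeR adjusted p = 0.14) and NFATC3 22.0 and 25.0 CPM (0.27). Of 28 tested YAP, TAZ and TEAD factors and targets, 3 fell and 1 rose (6 and 5 with the replicate block). The share called was 14.3%, beside 6.99% of all tested genes. The lowered genes were VGLL1, the membrane repair protein MYOF (-0.73 ± 0.17, edgeR adjusted p = 0.024) and the actin-binding protein LIMA1 (-0.34 ± 0.07, 0.019), and the raised one was SAV1, a scaffold of the Hippo kinases (0.54 ± 0.15, 0.049). MYOF and LIMA1 lost their calls without any single T1 library or without C1 replicate 1 or 3 (edgeR adjusted p = 0.0504 to 0.0962), and SAV1 without any single T1, C1 or 24 h Yoda1 library or 24 h control replicate 3 (0.0577 to 0.174). The targets CCN1, CCN2 and ANKRD1 were not called. CCN1 was at 103, 135 and 141 CPM in C1 and at 132, 155 and 130 CPM in T1, CCN2 at 4.34, 5.30 and 3.66 CPM and at 4.48, 4.01 and 4.18 CPM, and the groups of each overlapped (edgeR adjusted p = 0.68 and 0.90, the sign of CCN2 turning on TPM values and without C1 replicate 2). ANKRD1 did not exceed 0.594 CPM in any of the 6 libraries (edgeR adjusted p = 0.58).

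Most called genes for secreted signals and their receptors fell, while FGF21 and the receptors F2RL1 and GPR180 rose (0.73, 0.48 and 0.33). FGF21, F2RL1 and GPR180 were called in only 3, 5 and 3 of the 12 leave-out fits. Without T1 replicate 1 (edgeR adjusted p = 0.154, 0.143 and 0.16) or T1 replicate 3 none of them was called. Of 57 tested G protein-coupled receptors, 2 rose (3.51%) and 3 fell (5.26%), beside 3.01% and 3.97% of all tested genes. None of these receptor calls held in every leave-out fit. Of 34 tested WNT pathway genes, the 3 called (8.82%, beside 6.99% of all tested genes) were the ligands WNT5A, WNT7B and WNT10A. Each was called in every leave-out fit. WNT10A stood at 56.2, 55.9 and 54.9 CPM in C1 and at 24.9, 27.3 and 25.5 CPM in T1. Libraries within each group nearly coincided, and the fall was 1.10 on the log2 scale with an SE of 0.13 (edgeR adjusted p = 0.00091). WNT7B, a ligand of the kidney collecting duct, was at 302, 275 and 320 CPM in C1 and at 170, 204 and 180 CPM in T1 (-0.70 ± 0.09, edgeR adjusted p = 0.0011). WNT5A, mostly a noncanonical ligand, was at 23.0, 18.9 and 28.9 CPM in C1 and at 8.23, 8.79 and 7.36 CPM in T1 (-1.53 ± 0.21, edgeR adjusted p = 0.0019). The controls of WNT5A spread more widely than its treated libraries, and the groups stayed apart. AXIN2, a common target of beta-catenin signalling, averaged 8.19 CPM in C1 and 5.46 CPM in T1 and missed the threshold (edgeR adjusted p = 0.059). Under the replicate block 9 WNT pathway genes fell and 6 rose.

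In the TGF-beta and BMP pathway 2 of 23 tested genes fell (8.70%, beside 3.97% of all tested genes). None rose by edgeR, at an unadjusted p under 0.05 or by DESeq2. FSTL1, a secreted glycoprotein that binds BMP ligands, was at 71.5, 59.8 and 75.5 CPM in C1 and at 41.2, 42.1 and 43.1 CPM in T1 (-0.71 ± 0.13, edgeR adjusted p = 0.0093), and it was called in every leave-out fit. BAMBI, a decoy receptor for TGF-beta family ligands, fell from 20.03, 20.6 and 26.7 CPM to 9.48, 12.3 and 10.7 CPM (-1.05 ± 0.20, edgeR adjusted p = 0.0093). Without T1 replicate 1 or T1 replicate 3 its adjusted p was 0.054 and 0.0527. IGF2R, which clears the growth factor IGF2 and carries lysosomal enzymes, was at 232, 212 and 239 CPM in C1 and at 146, 130 and 121 CPM in T1. All treated libraries were far below the controls, and the fall of 0.78 with an SE of 0.13 (edgeR adjusted p = 0.0044) was called in every leave-out fit. The calcium-regulated hormone STC1, named among abundant genes, was at 268, 218 and 268 CPM in C1 and at 135, 140 and 123 CPM in T1 (-0.92 ± 0.14, edgeR adjusted p = 0.0033), also called in every leave-out fit. By edgeR none of 16 EGF family ligands and receptors, of 15 Notch pathway genes or of 13 feedback regulators of MAP kinases was called. At an unadjusted p under 0.05 by edgeR there were 2, 2 and 3, beside 3322 of all 14169 tested genes. DESeq2 called 2, 1 and 0. DUSP6, a phosphatase induced by ERK signalling, averaged 171 CPM in C1 and 161 CPM in T1, and AREG, an EGF receptor ligand, 15.2 and 23.8 CPM (edgeR adjusted p = 0.72 and 0.30).

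Of 52 tested cytokine, chemokine and receptor genes, 6 fell (11.5%, beside 3.97% of all tested genes). None rose by edgeR (2 higher at an unadjusted p under 0.05, and 1 by DESeq2). CSF2, the growth factor GM-CSF, was at 6.25, 7.98 and 12.2 CPM in C1 and at 1.66, 3.46 and 3.37 CPM in T1, a difference of -1.64 ± 0.35 (edgeR adjusted p = 0.019). The lowest treated library and the highest control differed most, and the groups did not overlap. IL1RN, the interleukin 1 receptor antagonist, fell from 2.17, 2.80 and 3.32 CPM to 1.09, 1.16 and 0.959 CPM (-1.36 ± 0.30, edgeR adjusted p = 0.019). TNFRSF11A and its ligand TNFSF11, the RANK and RANKL pair, fell by 0.80 and 0.69 on the log2 scale (edgeR adjusted p = 0.033 and 0.04), and SOCS3, a feedback inhibitor of cytokine receptors, fell by 0.51 (0.036). The sixth, CLCF1, a cytokine of the interleukin 6 family, fell by 0.32 (0.041). None of the 6 kept its call in every leave-out fit. The number of lowered genes in the list was 0 without T1 replicate 1 or T1 replicate 3, 1 without C1 replicate 3, 2 without C1 replicate 1 or C1 replicate 2, and 3 without T1 replicate 2. The count also moved without the 24 h libraries, to 9 without control replicate 1 or 2, 4 and 2 without Yoda1 replicates 1 and 2, and 3 without Yoda1 replicate 3. Under the replicate block 15 fell and 6 rose.

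Inside the cell, the MAP kinase cascade had 3 lowered genes among 42 tested. The share called was 7.14%, near the 6.99% of all tested genes. MAP2K6, the kinase that activates p38, fell furthest of the 3. It stood at 1.46, 0.933 and 1.04 CPM in C1 and at 0.192, 0.162 and 0.192 CPM in T1. All 3 treated libraries were near the floor of detection, and the fall was 2.63 with an SE of 0.40 (edgeR adjusted p = 0.0034). MRAS, a Ras family GTPase, fell from 77.8, 72.6 and 71.3 CPM to 57.1, 53.0 and 54.6 CPM (-0.43 ± 0.07, edgeR adjusted p = 0.0062). Both genes were called in every leave-out fit. Of 54 tested G protein subunits, RGS proteins and cyclic nucleotide enzymes and anchors, 3 rose and none fell by edgeR (4 lower at an unadjusted p under 0.05, and 1 by DESeq2). The share called was 5.56%, below the 6.99% of all tested genes, and with the replicate block 7 rose and 5 fell. PDE3A, a cyclic nucleotide phosphodiesterase, rose from 7.94, 6.61 and 5.89 CPM to 17.5, 12.7 and 13.5 CPM, with T1 replicate 1 the highest (edgeR adjusted p = 0.011, and 0.0589 without that library or 0.0518 without C1 replicate 3). AKAP1, which anchors protein kinase A at mitochondria, rose by 0.52 ± 0.10 (edgeR adjusted p = 0.01, and 0.0541 and 0.0533 without T1 replicates 1 and 3). The third, the phosphodiesterase PDE4D, rose by 0.34 (edgeR adjusted p = 0.024), a call lost without any C1 library (0.0575, 0.0859 and 0.0716) and without T1 replicates 1 or 3 (0.11 and 0.0673).

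The list of calcium signalling enzymes and calcium-binding proteins, which also held PLA2G7, had the most lowered genes of the signalling lists. In it, 11 of 56 tested identifiers (19.6%) fell against 2 that rose, with a median of -0.05. The 11 held annexins and S100 proteins, which bind membranes and partner proteins in the presence of calcium, along with the kinase CAMK2D and PLA2G7, an enzyme that hydrolyses oxidised phospholipids and platelet activating factor. ANXA5 was at 206, 201 and 204 CPM in C1 and at 126, 136 and 128 CPM in T1. Libraries of each group lay within a narrow range, and the fall was 0.65 with an SE of 0.10 (edgeR adjusted p = 0.0031). ANXA1, known for its part in resolving inflammation, stood at 3019, 3102 and 3456 CPM in C1 and at 1906, 1998 and 1897 CPM in T1 (-0.72 ± 0.12, edgeR adjusted p = 0.0049). Both annexins and PLA2G7 (-0.63) were called in every leave-out fit, and ANXA2 (-0.38), ANXA6 (-1.26) and CAMK2D (-0.53) also fell. Among the S100 genes, S100A2 (-0.77), S100A14 (-0.54), S100A16 (-1.78) and 2 identifiers both labelled S100A10 (each -0.51) fell, and near-identical copies can share reads. S100A16 averaged only 0.52 CPM in C1 and 0.147 CPM in T1. It was called in 1 of the 6 fits that left out a T1 or C1 library. The list's lowered genes numbered 3 without T1 replicate 1, T1 replicate 3 or C1 replicate 3, 5 without C1 replicate 2 and 7 without C1 replicate 1. Under the replicate block 17 fell and 4 rose.

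At the membrane, proteins of lipid rafts, caveolae and the apical domain gave the largest share of lowered genes, 6 of 20 tested (30%), with a median of -0.36 and none higher by edgeR, at an unadjusted p under 0.05 or by DESeq2. MALL, a MAL family protein of raft membranes, was at 152, 143 and 155 CPM in C1 and at 31.8, 35.7 and 32.3 CPM in T1. Libraries within a group differed little beside the gap between groups, and the difference was -2.17 ± 0.12 (edgeR adjusted p = 2.1e-06). MAL itself, which is needed for apical transport in MDCK cells, was at 821, 946 and 866 CPM in C1 and at 497, 665 and 552 CPM in T1 (-0.62 ± 0.11, edgeR adjusted p = 0.0091). CAV1, the main coat protein of caveolae, was at 3424, 3212 and 3411 CPM in C1 and at 2161, 2108 and 2180 CPM in T1. Its treated libraries differed from one another by a small part of the drop, which was 0.64 with an SE of 0.13 (edgeR adjusted p = 0.015). CAV2, the partner of CAV1, averaged 1189 CPM in C1 and 1045 CPM in T1 and was not called (edgeR adjusted p = 0.20). SLC9A3R1, the scaffold NHERF1 that links apical transporters to ezrin, fell from 460, 479 and 446 CPM to 306, 337 and 312 CPM (edgeR adjusted p = 0.0081), while ezrin itself, EZR, averaged 2199 and 2198 CPM. UPK3A (-1.54) and CEACAM1 (-0.68), which has close paralogs that can share reads, completed the 6 with edgeR adjusted p = 0.03 and 0.041. MALL was the only member called in every leave-out fit. MAL, SLC9A3R1 and CAV1 lost their calls without T1 replicate 3 (edgeR adjusted p = 0.0553, 0.0505 and 0.0683), and CAV1 also without T1 replicate 1, C1 replicate 1 and C1 replicate 3 (0.0634, 0.0535 and 0.0537). UPK3A missed the threshold without any C1 library or without T1 replicates 1 or 3 (0.0521 to 0.128), and CEACAM1 without C1 replicates 1 or 3, any T1 library or any 24 h Yoda1 library (0.0579 to 0.154). Under the replicate block 13 of the 20 fell and 0 rose, beside 2108 and 2231 of all 14169 tested genes.

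Integrins, tetraspanins and matrix receptors followed with 10 of 40 tested lower (25.0%) and a median of -0.31. None was higher by edgeR or DESeq2, and 2 were higher at an unadjusted p under 0.05. TSPAN15, a tetraspanin that guides the sheddase ADAM10, stood at 130, 143 and 132 CPM in C1 and at 52.9, 64.6 and 61.6 CPM in T1. The treated libraries were below all controls by a wide margin, a fall of 1.18 with an SE of 0.10 (edgeR adjusted p = 8.1e-05). COL17A1, a collagen of hemidesmosomes, was at 1182, 1152 and 1311 CPM in C1 and at 559, 623 and 551 CPM in T1. ITGB1, the most widely shared integrin beta subunit, was at 838, 756 and 908 CPM in C1 and at 621, 542 and 551 CPM in T1. The groups of both genes stayed apart although the controls spread more than the treated libraries. CD47, an integrin-associated receptor, fell by 0.33. These 4 were called in every leave-out fit, and the other 6, TSPAN14, CD82, ITGB5, ITGA3, TSPAN1 and ITGBL1, all lost theirs without T1 replicate 3. The number lowered was 4 without T1 replicate 3, 5 without T1 replicate 1 and 6 without C1 replicate 3. The replicate block gave 19 that fell and 2 that rose.

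Junction genes were lowered in part. Of 20 tested claudin and tight junction genes, 5 fell (CLDN1, CLDN3, CLDN16, TJP3 and CGN) and 1 rose (CLDN12), and of 20 cadherin, catenin and nectin genes 3 fell (CDH1, NECTIN4 and PCDHGC3). The lowered shares were 25% and 15%, beside 3.97% of all tested genes. CLDN1, a sealing claudin, was at 499, 447 and 493 CPM in C1 and at 286, 263 and 285 CPM in T1 (-0.79 ± 0.08). CDH1, the E-cadherin of adherens junctions, was at 1086, 980 and 1178 CPM in C1 and at 788, 707 and 705 CPM in T1. The lowest control of CDH1 lay above the highest treated library, and the same was the case for CLDN1. NECTIN4, an adhesion molecule of the same junctions, was at 68.1, 74.5 and 76.8 CPM in C1 and at 32.5, 42.5 and 43.3 CPM in T1. TJP3, a scaffold of tight junctions, was at 34.2, 44.7 and 38.9 CPM in C1 and at 18.7, 27.2 and 24.2 CPM in T1, with T1 replicate 2 nearest to the controls. CLDN16, a claudin of renal magnesium and calcium reabsorption, stood at 4.64, 2.99 and 2.77 CPM in C1 and at 0.768, 0.420 and 0.882 CPM in T1. CDH1, NECTIN4, PCDHGC3, CLDN1, CLDN16 and TJP3 were called in every leave-out fit, while CLDN12, CLDN3 and CGN each lost their calls without C1 replicate 2, C1 replicate 3, T1 replicate 1 or T1 replicate 3 (edgeR adjusted p = 0.0531 to 0.134). CLDN12 was further lost without C1 replicate 1 (0.0549), and CLDN3 without 24 h Yoda1 replicates 2 or 3 (0.0541 and 0.0533). PTPRU, a receptor tyrosine phosphatase that acts on adhesion complexes, fell from 20.7, 18.0 and 23.3 CPM to 10.7, 10.6 and 9.13 CPM (-1.02 ± 0.15, edgeR adjusted p = 0.0025), called in every leave-out fit. With the replicate block, 7 claudin and tight junction genes fell and 6 rose, and in the cadherin group 9 fell and 1 rose.

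The share called was 6.90% of 29 calcium entry channels, 3.23% of 31 potassium, sodium and chloride channels and 3.12% of 32 ATPase pumps. For 8 calcium pumps and exchangers it was 25%, beside 6.99% of all tested genes. Of 29 tested calcium entry channels 2 fell, the cation channel TRPM3 and the store-operated channel ORAI2. TRPM3 was at 12.4, 13.3 and 15.7 CPM in C1 and at 5.92, 5.52 and 6.79 CPM in T1, so that every treated library had less than every control (-1.18 ± 0.24, edgeR adjusted p = 0.014). TRPV4, a channel of osmotic and mechanical responses, averaged 203 CPM in C1 and 168 CPM in T1 and missed the threshold (edgeR adjusted p = 0.055). KCNQ1, a potassium channel subunit of epithelia, fell from 23.4, 31.6 and 25.5 CPM to 14.7, 14.7 and 14.9 CPM (-0.87 ± 0.16, edgeR adjusted p = 0.0093). Of 8 tested calcium pumps and exchangers, 1 rose and 1 fell: SLC8B1, the sodium-calcium exchanger of mitochondria, rose from 9.70, 11.7 and 12.5 CPM to 15.6, 18.2 and 19.0 CPM (edgeR adjusted p = 0.01), and ATP2A3, a calcium pump of the endoplasmic reticulum, fell from 18.9, 18.8 and 16.3 CPM to 10.0, 11.0 and 10.6 CPM (0.016). FXYD3, a regulator of the sodium pump, fell from 1.54, 1.21 and 1.09 CPM to 0.224, 0.388 and 0.23 CPM (edgeR adjusted p = 0.0064), and it was the one gene of this group called in every leave-out fit. ATP1B1, the beta subunit of that pump, averaged 357 CPM in C1 and 256 CPM in T1 and missed the threshold (edgeR adjusted p = 0.051). Without T1 replicate 3 the edgeR adjusted p was 0.0505 for TRPM3, 0.0961 for ORAI2, 0.0505 for KCNQ1, 0.0603 for SLC8B1 and 0.0701 for ATP2A3. TRPM3 was also lost without T1 replicate 1 (0.0672) or C1 replicate 3 (0.0538), ATP2A3 without T1 replicate 1, C1 replicate 1 or C1 replicate 2 (0.0705, 0.0564 and 0.0502), and ORAI2 without any single T1 or C1 library (0.0525 to 0.111).

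Among 160 solute carriers, 5 rose (3.12%) and 9 fell (5.62%), near the 3.01% and 3.97% of all tested genes, and the median was 0.01. SLC3A2, the heavy chain of amino acid exchangers, rose from 104, 113 and 103 CPM to 160, 179 and 165 CPM (0.65 ± 0.16, edgeR adjusted p = 0.03), and its partner SLC7A11 averaged 32.4 CPM in C1 and 45.4 CPM in T1 without a call (0.37). SLC4A5, a sodium bicarbonate cotransporter, rose from 2.51, 2.99 and 2.33 CPM to 4.99, 4.07 and 4.49 CPM (0.78 ± 0.15, edgeR adjusted p = 0.011). SLC35C1, the GDP-fucose transporter of the Golgi, fell from 49.8, 53.1 and 51.0 CPM to 29.1, 32.7 and 33.1 CPM (-0.70 ± 0.16, edgeR adjusted p = 0.02). No carrier of the list was called without T1 replicate 3, and 1 of each direction was called without T1 replicate 1. Counts without the other libraries moved as well: 3 rose and 3 fell without C1 replicate 1, 2 and 6 without C1 replicate 2, 1 and 2 without C1 replicate 3, and 8 and 18 or 6 and 15 without 24 h control replicates 1 or 2. With the replicate block, 31 rose and 34 fell, beside 2231 and 2108 of all 14169 tested genes.

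**Figure D5:**
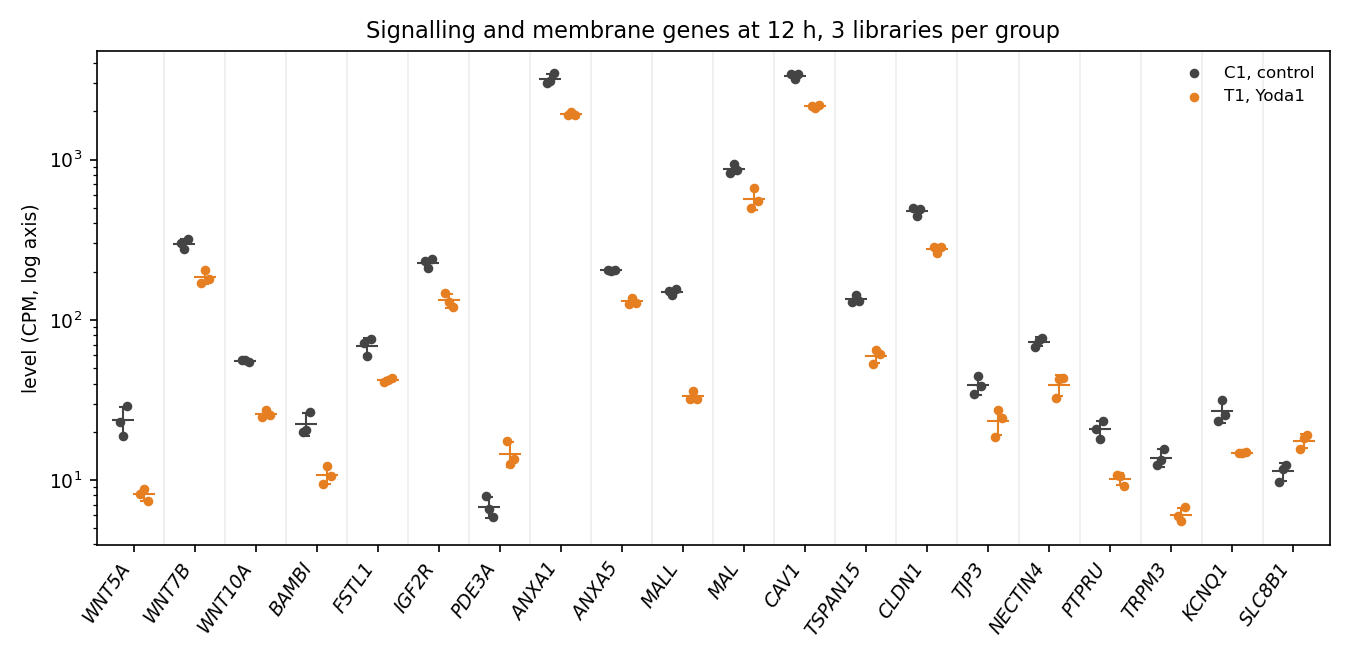
Level of signalling and membrane genes in each library (vertical axis, CPM on a log scale) for control and Yoda1 at 12 h, with each point 1 library, the dash the mean and the bar the SD. MALL shows the widest gap, from 143 to 155 CPM in the controls to 31.8 to 35.7 CPM with Yoda1, and PDE3A and SLC8B1 are the genes plotted that rose.

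Proteases, their inhibitors and other surface or matrix proteins were also lowered, 7 of 32 tested (21.9%) with a median of -0.29. TIMP1, a secreted inhibitor of metalloproteases, was at 97.6, 81.7 and 67.5 CPM in C1 and at 40.7, 46.5 and 39.2 CPM in T1, and it alone of the 7 was called in every leave-out fit. MMP9, a gelatinase, fell from 592, 724 and 1090 CPM to 123, 294 and 158 CPM, the widest spread among the abundant genes named here, at -2.06 ± 0.48 (edgeR adjusted p = 0.035). Its adjusted p was 0.088 with the replicate block, and it was not called without any single C1 library (0.0583, 0.0779 and 0.104 for replicates 1 to 3), without T1 replicates 1 or 3 (0.127 and 0.133) or without 24 h Yoda1 replicates 2 or 3 (0.051 and 0.0533). The number of lowered genes in the list was 1 without T1 replicate 3, 2 without T1 replicate 1 or C1 replicate 3, 3 without C1 replicate 1, 4 without C1 replicate 2, 11 without 24 h control replicate 2, and 14 with the replicate block, where 1 rose. Outside the list, APLP2, a relative of the amyloid precursor protein, was at 599, 513 and 560 CPM in C1 and at 277, 288 and 271 CPM in T1. Its treated libraries nearly coincided, a fall of 1.00 with an SE of 0.08 (edgeR adjusted p = 2.4e-05). EPS8L1, an actin regulator of the EPS8 family, was at 177, 231 and 209 CPM in C1 and at 98.5, 118 and 106 CPM in T1 (-0.94 ± 0.14, edgeR adjusted p = 0.0036), also called in every leave-out fit.

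Genes of protein folding in the endoplasmic reticulum, through which membrane and secreted proteins pass, were lowered in 8 of 30 cases (26.7%), with a median of -0.19. HSP90B1, the chaperone GRP94, was at 1089, 1037 and 1171 CPM in C1 and at 571, 547 and 529 CPM in T1. The disulfide isomerase PDIA3 was at 848, 836 and 892 CPM in C1 and at 543, 552 and 528 CPM in T1, and PDIA6 at 656, 643 and 739 CPM and at 452, 477 and 456 CPM. In each of these, the treated libraries lay closer to one another than to the controls. HYOU1, a chaperone of the same compartment, fell from 380, 346 and 423 CPM to 272, 275 and 257 CPM (-0.52 ± 0.08, edgeR adjusted p = 0.0037). These 4 were called in every leave-out fit, and MANF, HERPUD1, DNAJB11 and PDIA5 also fell but were not called without T1 replicate 1 or T1 replicate 3. The only riser of the list was SLC3A2, and ATF4 (575 and 656 CPM on average in C1 and T1) and DDIT3 (14.4 and 12.6 CPM), factors of the unfolded protein response, were not called (edgeR adjusted p = 0.28 and 0.76). The number lowered was 4 without T1 replicate 1 or T1 replicate 3 and 5 without C1 replicate 3, and 15 fell and 7 rose with the replicate block.

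Genes of DNA replication were the intracellular list with the most risers, 8 of 35 tested (22.9%), with a median of 0.25 and none lower by edgeR, at an unadjusted p under 0.05 or by DESeq2. CDC6, which loads the replicative helicase, was at 64.6, 57.1 and 58.8 CPM in C1 and at 100, 93.2 and 97.2 CPM in T1, a rise of 0.69 ± 0.12 (edgeR adjusted p = 0.0062) called in every leave-out fit. ORC1, a subunit of the origin recognition complex, rose from 18.9, 17.6 and 17.7 CPM to 31.5, 26.9 and 33.0 CPM (0.75 ± 0.17, edgeR adjusted p = 0.022). CLSPN, an adaptor of the replication checkpoint, rose from 36.4, 33.7 and 34.8 CPM to 54.7, 48.6 and 54.9 CPM (0.59 ± 0.12, edgeR adjusted p = 0.015). The groups of all 3 genes were separate, with T1 replicate 2 the lowest treated library of each. ORC1 and CLSPN lost their calls without C1 replicate 2 (edgeR adjusted p = 0.0732 and 0.0517), C1 replicate 3 (0.0746 and 0.0554), T1 replicate 1 (0.0794 and 0.0658) or T1 replicate 3 (0.0961 and 0.0724), and ORC1 also without C1 replicate 1 (0.0587). The count of risers was 1 without C1 replicate 3 or T1 replicate 3, 2 without C1 replicate 2 or T1 replicate 1, 4 without C1 replicate 1, and 21 with the replicate block, where 1 fell. Of 36 genes of mitosis, AURKA and KIF4A rose (0.32 and 0.30), or 5.56% beside 3.01% of all tested genes. Both lost their calls without any single T1 or C1 library (edgeR adjusted p = 0.0511 to 0.138) and without 24 h Yoda1 replicate 3 (0.0521 and 0.0572). With the block 17 of the 36 rose and 0 fell. TXNRD1, a thioredoxin reductase of the NRF2 programme, rose from 301, 245 and 309 CPM to 545, 452 and 530 CPM (0.84 ± 0.13, edgeR adjusted p = 0.0035), called in every leave-out fit.

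Outside the lists, several of the genes with the largest changes above 5 CPM or with high levels were called in every leave-out fit. KIF5C, a kinesin motor, rose from 11.9, 8.92 and 11.7 CPM to 31.9, 24.2 and 24.8 CPM. FHDC1, a formin that acts on actin and microtubules, rose from 11.9, 9.14 and 12.1 CPM to 24.8, 22.3 and 26.8 CPM. HCFC1, a transcriptional coregulator of the cell cycle named among the abundant genes, rose from 163, 148 and 163 CPM to 232, 223 and 204 CPM (0.47 ± 0.09, edgeR adjusted p = 0.0084). The controls of all 3 genes lay below every treated library, as in every called gene that rose. On the lowered side, GAS2, an actin-binding protein of growth arrest, went from 10.3, 7.19 and 9.70 CPM to 2.14, 1.91 and 2.49 CPM (-2.05 ± 0.28, edgeR adjusted p = 0.0015). CTSE, the aspartic protease cathepsin E, went from 6.89, 5.30 and 7.13 CPM to 1.86, 2.00 and 1.42 CPM (-1.86 ± 0.26, edgeR adjusted p = 0.0020). PIGR, the receptor that carries immunoglobulins across epithelia, went from 5.20, 5.05 and 5.94 CPM to 1.66, 2.33 and 1.96 CPM (-1.44 ± 0.26, edgeR adjusted p = 0.0079). PLAAT4, a phospholipase and acyltransferase, fell by 1.65 with an SE of 0.26 (edgeR adjusted p = 0.0036). In each of these the treated libraries were all below the lowest control, as in every called gene that fell. The fibroblast marker ACTA2 and the endothelial marker TIE1 fell too, from 1.98 to 2.23 CPM to 0.224 to 0.646 CPM and from 0.562 to 0.768 CPM to 0.128 to 0.192 CPM, and the part of such cells in the lowered genes was not tested. ACTA2 was not called without T1 replicate 1 or 3 (edgeR adjusted p = 0.0574 and 0.0547).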

How the data were processed

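Poly(A) RNA of MDCK cells was sequenced as stranded paired-end libraries, per the labels' protocols. The submitters' processing notes name fastp 0.23.4, STAR 2.7.10b and RSEM 1.3.3. No source used here names the genome build. The authors deposited expected counts per gene, not normalized (91.1% of values whole), TPM values from the same libraries, and a sample sheet. Of 31121 identifiers, 13022 carried a symbol, and those without one held 33.1% to 34.1% of counts. The dog sequences and coordinates were not used here.

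Expected counts were rounded to whole numbers and fitted in R 4.3.3 with edgeR 4.0.16 (TMM, filterByExpr, robust quasi-likelihood fit, 1 mean for each of 4 groups, all 12 libraries), with Benjamini-Hochberg adjustment over all 14169 tested genes and calls at an adjusted p under 0.05. The common biological coefficient of variation was 13.3%. The code was tested on simulated data. Alternatives were DESeq2 1.42.0, limma 3.58.1 (voom, and log2(TPM + 1) or log2(TPM + 0.1)), other scalings, no filter, the 6 libraries alone, a replicate block, and leaving out each library. No column was left unmapped. A few genes and 1 gene list are not reported here.

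The labels do not say that replicate numbers mark a shared culture. Deviations from the group means of T1 and C1 libraries correlated at 0.15, 0.28 and 0.11 for equal numbers, all above 0.1. Those of unequal numbers were lower, the highest being 0.08 for C1 replicate 3 with T1 replicate 1. Deviations cancel out within a group, so positive correlations at equal numbers push those at unequal numbers lower. The contrast between these correlations is therefore not separate evidence of pairing. The pairing in the replicate block rests on these correlations alone, which are too few and too small to show a shared culture. Genes were named by a rule: the 15 highest and 15 lowest called genes with at least 5 CPM and no overlap of libraries, up to 6 called members of each list by size, the 8 highest and 8 lowest with at least 200 CPM, and 14 preset genes. Where a short list is given in full, its other called members (PLA2G7, CAMK2D, ANXA2, S100A10, S100A14, CD47, TSPAN14, ITGB5, ITGA3, MANF, HERPUD1 and DNAJB11) were chosen after their values were seen. The members, the lists and this rule were chosen with earlier results of these data known.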

Additional observations from a re-analysis of the deposited data

How the results depend on the processing

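Beside 990 called genes, DESeq2 called 1640, edgeR on the 6 libraries alone 1673, and edgeR with the replicate block, which leaves 2 residual degrees of freedom, 4339. Leaving out 1 library gave 185 to 1695. Limma voom (883), RLE scaling (973), total-count scaling (1255), log2(TPM + 1) (1063), log2(TPM + 0.1) (1069, 64.3% higher) and no filter (809) stayed within 1.5 times. Of the 990, 977 were called by DESeq2, 967 in the 6 libraries, 876 by voom and 983 with the replicate block, and 170 in all 12 fits without 1 library. Of the genes named by the rule, calls ended for 31 on log2(TPM + 1) values, 27 on log2(TPM + 0.1) values, 15 with no filter, 10 by voom, 3 with total-count scaling, 2 with RLE scaling, 2 in the 6 libraries and 1 with the replicate block (MMP9), and for up to 104 without 1 library (T1 replicate 3). The log2 difference of CCN2, which was negative, was 0.0124 on log2(TPM + 1) and 0.0176 on log2(TPM + 0.1) values, and ran from -0.193 to 0.0728 over the fits without 1 library, positive without C1 replicate 2. That of MYC was 0.0294 and 0.0295 on these values and ran from -0.0967 to 0.0058, positive without T1 replicate 3. The cause was not tested.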

Other observations

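Other genes called in every fit that left out 1 library, chosen after their values were seen, included nuclear and RNA-processing genes that rose. SF3B4 and SF3A1, subunits of the splicing factor SF3, differed by 0.58 and 0.31 on the log2 scale, CASC3, a core protein of the exon junction complex, by 0.54, MEPCE, which caps the small nuclear RNA 7SK, by 0.46, and the zinc finger factor ZNF143 by 0.57. TLE4, a Groucho family corepressor, rose by 0.50 and ESPL1, the protease separase, by 0.60. Genes that fell, chosen in the same way, included SASH1, a scaffold of signalling complexes, at -1.25, the costimulatory molecule CD86 at -1.23, UGP2, which makes UDP-glucose, at -0.69, STEAP3, an endosomal iron reductase, at -0.81, and GRK5, a kinase of G protein-coupled receptors, at -0.68. STMN3, a microtubule-destabilising protein also singled out after its values were seen, had 57 counts over the 3 C1 libraries and 0 over the 3 T1 libraries. Against a floor of 3 counts over the T1 group it was at least 20.1-fold lower in T1, a bound that covers counting error only.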
